A study of Gallus gallus with 20 samples.

Results

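The organic raising effect was compared between 2 tissues of KRC chickens, the liver and the pectoralis major (breast muscle), as the organic change in liver minus the organic change in muscle. All 20 of the 20 libraries entered, in 4 groups of 5: conventional liver, organic liver, conventional muscle and organic muscle. Of the 27170 genes in the table, 14447 passed the filter on low counts and were tested, and 10955 of these had a mean of at least 1 CPM in each tissue. CPM is a count scaled to the library's total, after that total was adjusted by edgeR's TMM normalisation factor. Directions were compared between tissues over these 10955 genes. The members of the comparison are the libraries, chosen by their labels and by no measured value.

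Per the labels, 125 chicks of mixed sex entered each system at 1 day of age, in 5 pens of 25 birds, and all birds lived in the same poultry house until slaughter at 91 days. Conventional birds were given commercial feed. Organic birds were given feed of organic raw materials and, from day 21, an outdoor pasture. Feed and pasture changed together and cannot be told apart. RNA came from whole tissue. Age, house and line were shared by all 4 groups, and the labels do not say whether the liver and muscle libraries came from the same birds, from which pens they came or at which hour tissue was taken. No label says that libraries of a group were from separate birds, so the p-values measure the spread between these libraries.

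Liver is the main site of fatty acid and cholesterol synthesis in chickens, makes most plasma proteins and releases glucose from glycogen. Breast muscle consists mostly of fast glycolytic fibres, takes up glucose and lipid from the blood and is the body's large store of protein. Some programmes of gene activity run in nearly every cell: the interferon response against viruses, the heat shock and unfolded protein responses that make chaperones, the circadian clock, and the response to glucocorticoid hormones.

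The markers of hepatocytes summed to 130000 to 240000 CPM in liver libraries and to 321 to 1610 CPM in muscle libraries, over 11 of 12 markers measured. Markers of skeletal muscle fibres summed to 86200 to 119000 CPM in muscle and to 0.823 to 6.68 CPM in liver, over 5 of 12 measured. The labelled tissues thus held their defining genes. Total counts were 14065269 to 15175691 in 9 liver libraries, 20488526 in liver organic replicate 1, and 12699692 to 13417005 in muscle. The mitochondrial share of counts was 3.27% to 5.6% in muscle and 5.79% to 14.2% in liver, where the highest share was in organic replicate 4. Muscle conventional replicate 1 stood apart by single slow fibre genes. The slow myosin MYH7B was at 448 CPM there and at 0.188 to 31.9 CPM in the other 9 muscle libraries. MB was at 81.3 CPM there and at 0.45 to 7.11 CPM in the others. The 5 slow fibre markers measured, of 10 listed, summed to 7170 to 9670 CPM in conventional and 8410 to 10500 CPM in organic muscles. By that sum this library did not lie above the organic range. Liver organic replicates 1 and 4 and muscle conventional replicate 1 are called the 3 libraries that stand apart, a choice made after seeing the data. Where leaving out 1 library moved a value by over 1.5 times, the value without it is given beside the larger results.

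No gene passed the test for a change that differed between the tissues. With edgeR's quasi-likelihood test and Benjamini-Hochberg adjustment, 0 of 14447 genes (0%) had an adjusted p under 0.05 for liver minus muscle, the smallest adjusted p was 0.816, and DESeq2 also called 0 genes. The unadjusted p was under 0.05 for 771 genes (5.34%), of which 389 (2.69%) had a difference, liver minus muscle, above 0 and 382 (2.64%) one below 0. Among the 10955 genes at 1 CPM or more in both tissues, 601 (5.49%) reached it. The median standard error of a difference was 0.28 on the log2 scale, against 0.19 for a change in liver and 0.2 for one in muscle. This limits which differences could be called at 5 libraries a group.

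The mean of the changes in both tissues, which asks for a shared response, passed for 1 gene of 14447 (0.00692%) with edgeR. DESeq2 called 78 (0.562%) for the same mean, 49 higher and 29 lower in organic birds. An unadjusted p under 0.05 was reached by 1515 genes (10.5%), 718 higher (4.97%) and 797 lower (5.52%). Taken alone within the same fit, liver gave 0 calls with edgeR and 33 with DESeq2 (0.229%), with 1133 genes (7.84%) at an unadjusted p under 0.05, 574 higher (3.97%) and 559 lower (3.87%). Muscle gave 0 and 32 (0.256%), with 1191 genes (8.24%). Of the 10955 genes, 893 (8.15%) reached that level in liver, of which 393 were lower (3.59%), and 958 (8.74%) in muscle. In whole tissue, fewer cells of a type and less RNA per cell cannot be told apart for any of these values.

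Same-direction changes outnumbered opposite ones where both tissues had an unadjusted p under 0.05. There were 95 such genes (0.867% of 10955) with the same direction, 54 higher (0.493%) and 41 lower (0.374%) in organic birds in both tissues. Only 8 genes (0.073%) had opposite directions, 3 higher in liver and lower in muscle (0.0274%) and 5 the other way (0.0456%). Without muscle conventional replicate 1 the 95 became 58, without muscle organic replicate 1 they became 62, and without all 3 libraries that stand apart 39. The 8 ranged from 3 (without liver conventional replicate 5) to 21 (without muscle conventional replicate 3) with 1 library left out. They were 5 without liver organic replicate 1, 13 without muscle conventional replicate 4, 15 without liver conventional replicate 4, and 16 without either liver organic replicate 5 or muscle organic replicate 2.

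By direction of any size, 57% of the 10955 genes had estimates of the same sign in both tissues and 43% of opposite signs. Higher in both were 28.5%, lower in both 28.5%, higher in liver and lower in muscle 22.4%, and lower in liver and higher in muscle 20.6%. The difference was above 0 for 52.6% and the mean change for 50.3%. These shares are the background against which the gene lists below are read. Across genes, the changes in liver and muscle had a Pearson r of 0.23 and a Spearman coefficient of 0.21 (n = 10955 genes). This is a description, since genes are not independent and libraries of the same replicate number resembled each other across tissues (r of 0.03 to 0.25). Pairs of other numbers had r of -0.20 to 0.10, which overlaps that range. The correlation within same-number blocks estimated with limma-voom was 0.0995. Of 10 liver libraries, 9 were closest to the muscle library of their own number. A fit that treats such libraries as independent can understate the error of the mean change and raise the number of same-direction genes. For the difference between the tissues, such a fit can instead overstate the error. The groups did not overlap in liver for 123 genes (1.12%), in muscle for 137 (1.25%), in both tissues with the same direction for 4 (0.0365%) and in both with opposite directions for 0.

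**Figure D1:**
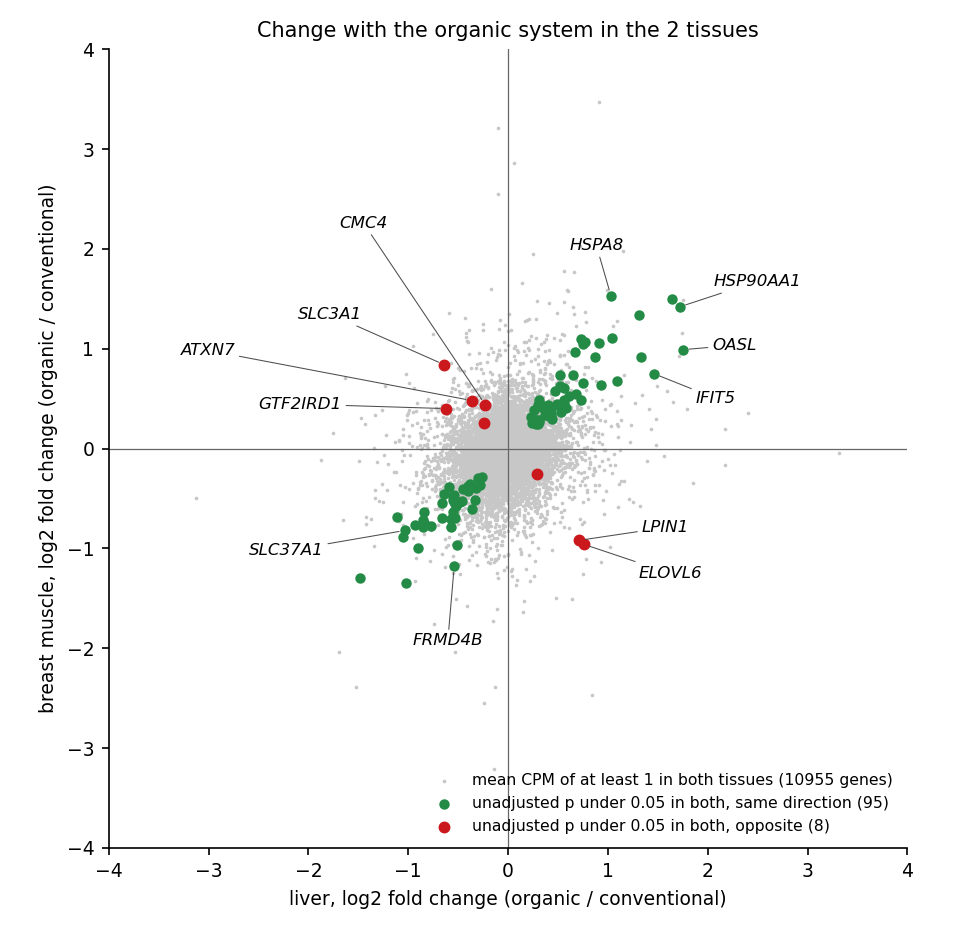
Each point is a gene with a mean of at least 1 CPM in both tissues (10955 genes); the x axis is the log2 fold change (organic over conventional) in liver and the y axis the same in breast muscle, from one edgeR fit. The 95 genes with an unadjusted p under 0.05 in both tissues and the same direction are green, and the 8 with opposite directions are red, so the coloured points lie mostly on the lower left and upper right.

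SLC37A1 was the 1 gene past the threshold, and it fell in organic birds as the mean of both tissues. It encodes a transporter of sugar phosphates in the endoplasmic reticulum membrane, known from human cells, and lies on chromosome 1 from 110776509 to 110811358 (ENSGALG00000016185; GRCg6a, the build of all positions here). Conventional livers held 13.6, 12.1, 16.4, 8.88 and 14.3 CPM and organic livers 5.48, 5.97, 5.76, 7.81 and 6.97 CPM. Conventional muscles held 14.7, 12.7, 17.1, 8.12 and 12.8 CPM and organic muscles 7.7, 6.67, 6.75, 7.83 and 8.25 CPM. Every organic liver lay below every conventional liver. In muscle the groups touched at 1 point, because conventional replicate 4 lay below organic replicate 5, and conventional replicate 4 was also the lowest conventional liver.

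The mean log2 fold change of SLC37A1 was -0.92 ± 0.13 (SE), with an adjusted p of 0.0111 by edgeR's quasi-likelihood test with Benjamini-Hochberg adjustment and 1.23e-06 by DESeq2. With 1 library left out the edgeR adjusted p ranged from 0.00103 to 0.0497. It missed the threshold with limma-voom (0.0508) and with limma-voom and replicate numbers as a random block (0.0645). With edgeR it missed with replicate numbers as terms within each tissue (0.126) and without the 3 libraries that stand apart (0.176). In these settings the estimate stayed between -0.91 and -0.89. Liver was at -1.03 ± 0.19 and muscle at -0.82 ± 0.19. Their difference was -0.22 ± 0.26, within its error.

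The other 10 genes named for a shared direction were among those with the smallest p of the mean in the set of 95, so their direction is part of the choice. None passed with edgeR, where adjusted p ran from 0.107 to 0.178, and all 10 passed with DESeq2, with adjusted p from 0.000395 to 0.0201. Of the 10, OASL, ELOC, IL1RL1, SCOC, IFIT5, TRAF2 and PISD were higher in organic birds, and ARHGEF10L, FRMD4B and TCTN1 were lower. SCOC and TCTN1 overlap another measured gene in position, and since no label or header gives the strandedness of the counting, the counts of all genes said to overlap are uncertain.

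OASL and IFIT5 are antiviral genes of the interferon response. OASL (ENSGALG00000013723, chromosome 12, 3635427 to 3637460) encodes a protein of the oligoadenylate synthetase family. Its level was 30.6, 32.5, 66.2, 55.6 and 22.6 CPM in conventional livers and 185, 142, 192, 121 and 56.1 CPM in organic livers. In muscle it was far lower, at 3.84, 2.55, 3.98, 1.84 and 4.4 CPM in conventional and 6.29, 4.23, 12.5, 5.7 and 4.33 CPM in organic libraries. Organic replicate 5 fell in the conventional range in both tissues, organic replicate 2 did so in muscle, and organic replicate 3 was the highest in both. The log2 fold change was 1.75 ± 0.35 in liver and 0.99 ± 0.39 in muscle, with a mean of 1.37 ± 0.26 and a difference of 0.75 ± 0.52.

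IFIT5 (ENSGALG00000045085, chromosome 6, 20187816 to 20191669), which binds viral RNA, had the same pattern. Conventional livers were at 30, 38.2, 62.2, 78.6 and 33.7 CPM and organic livers at 220, 117, 133, 146 and 51.4 CPM. Conventional muscles were at 2.86, 2.85, 5.2, 4.6 and 4.79 CPM and organic muscles at 5.16, 5.88, 8.69, 7.12 and 7.11 CPM. A single organic library overlapped the conventional range in each tissue, replicate 5 in liver and replicate 1 in muscle. The changes were 1.46 ± 0.31 in liver and 0.75 ± 0.34 in muscle (mean 1.10 ± 0.23; difference 0.71 ± 0.46).

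Over the whole list of interferon-stimulated genes, 21 of 28 members with at least 1 CPM in both tissues were higher in both, 6 were higher in liver and lower in muscle, 1 the reverse and 0 lower in both, where 28.5% of all genes were higher in both. The median log2 fold change was 0.33 in liver and 0.15 in muscle, beside medians of 0.005 and -0.005 over all genes. An unadjusted p under 0.05 with a higher level was reached by 12 members in liver (4.56% of all genes) and by 4 in muscle (3.95%). ZNFX1, an RNA sensor, was at 1.02 ± 0.25 in liver and 0.44 ± 0.26 in muscle. Members did not all keep to this: SAMHD1, which degrades the nucleotides viruses need, was at 0.01 ± 0.18 in liver and 0.68 ± 0.18 in muscle, and EIF2AK2, the kinase PKR that stops translation, at 0.82 ± 0.21 and -0.15 ± 0.23. EIF2AK2 overlaps another measured gene. With DESeq2, 4 members passed for the mean (0.562% of all genes tested), OASL, IFIT5 and ZNFX1 among them.

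The difference, liver minus muscle, was above 0 for 25 of 28 interferon list members (52.6% of all genes), with a median difference of 0.38 against 0.020 over all genes. That median was 0.25 without muscle conventional replicate 3. The liver median of the list was 0.50 without liver conventional replicate 3, and the muscle median was 0.07 without muscle conventional replicate 2 and 0.09 without muscle organic replicate 3. Relative to the conventional mean of its tissue, the mean log2 level of the list was 0.35 to 0.92 in organic livers and -0.32 to 0.52 in conventional livers. Muscle scores were 0.03 to 0.52 in organic and -0.16 to 0.27 in conventional libraries. The groups overlapped in both tissues through conventional replicate 3, the highest conventional library in each. T cell markers summed to 102 to 253 CPM in conventional and 117 to 146 CPM in organic livers, and macrophage markers to 993 to 1990 and 1010 to 1850 CPM, over 9 of 9 and 7 of 9 markers with none at 0. In muscle the T cell sums were 12.6 to 36.8 and 17 to 30.2 CPM, and the macrophage sums 53.3 to 139 and 60.9 to 126 CPM. The part of these cells in the result was not tested.

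ARHGEF10L (ENSGALG00000043128, chromosome 21, 135941 to 156749) encodes a guanine nucleotide exchange factor. Conventional livers held 63.8, 43.3, 51.3, 32.5 and 48.6 CPM and organic livers 33.6, 33.7, 26.1, 33.7 and 40.9 CPM. Conventional muscles held 69.7, 64.2, 85.5, 31.7 and 70.7 CPM and organic muscles 33, 30, 31.1, 33 and 37.6 CPM. Conventional replicate 4 lay inside the organic range in both tissues and the other 4 conventional libraries lay above every organic one. The changes were -0.51 ± 0.20 in liver and -0.97 ± 0.20 in muscle.

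FRMD4B (ENSGALG00000037791, chromosome 12, 15745789 to 15810437), a scaffold protein with a FERM domain, was at 31.7, 18.1, 26.1, 22.7 and 26.3 CPM in conventional and at 14.9, 21.4, 10.1, 17.2 and 22 CPM in organic livers. In muscle it was at 5.42, 3.68, 3.64, 4.06 and 2.78 CPM and at 1.5, 2.43, 2.17, 0.712 and 1.8 CPM. The muscle groups did not overlap and the liver groups did. The changes were -0.54 ± 0.24 in liver and -1.18 ± 0.28 in muscle.

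Among signalling genes with higher levels in both tissues, TRAF2 (ENSGALG00000042838, chromosome 17, 895590 to 912182) encodes an adaptor of tumour necrosis factor receptors. It was at 12.1, 13.6, 17.4, 16.8 and 12.9 CPM in conventional livers and 18, 17.9, 26.9, 17 and 24.2 CPM in organic livers. Muscle values were 21.1, 28.2, 24.8, 22.2 and 26.5 CPM in conventional and 55.8, 32.7, 32.5, 53.2 and 30.4 CPM in organic libraries. The groups did not overlap in muscle, and in liver 1 organic library (replicate 4) lay below the highest conventional one. The changes were 0.52 ± 0.19 in liver and 0.74 ± 0.19 in muscle.

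IL1RL1 (ENSGALG00000016785, chromosome 1, 135176642 to 135199850) is the receptor for interleukin 33 in mammals. Conventional livers were at 12.8, 25.9, 17.2, 16.6 and 15.8 CPM and organic livers at 24.8, 33, 39, 31.5 and 37.6 CPM. Muscle was at 1.2, 2.48, 1.04, 1.69 and 0.695 CPM in conventional and 1.6, 4, 4.19, 2.85 and 2.21 CPM in organic libraries. Replicate 2 was the highest conventional library in both tissues and overlapped the organic range there. The changes were close in size, 0.91 ± 0.25 in liver and 1.06 ± 0.31 in muscle.

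ELOC (ENSGALG00000035417, chromosome 2, 118013141 to 118026920), the elongin C subunit of several ubiquitin ligases, had a small change with little spread. Conventional livers were at 25.5 to 29.1 CPM (median 27.3) and organic livers at 33 to 41.1 CPM (median 38.2), with no overlap. Conventional muscles were at 45.9 to 51 CPM and organic muscles at 47.1 to 65.5 CPM, where organic replicate 3 alone lay inside the conventional range. The changes were 0.44 ± 0.10 and 0.30 ± 0.10. SCOC (ENSGALG00000009813, chromosome 4, 29619101 to 29627656), a coiled-coil protein of the Golgi, was 1 of the 4 genes with no overlap in either tissue: 22.8 to 26.7 against 29.4 to 41.2 CPM in liver and 65.5 to 77.2 against 78.2 to 104 CPM in muscle.

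PISD (ENSGALG00000006872, chromosome 15, 9214524 to 9238681), the mitochondrial enzyme that makes phosphatidylethanolamine, was at 1.04 ± 0.33 in liver and 1.11 ± 0.34 in muscle. The muscle value leaned on organic replicate 3, at 80.5 CPM beside 17.2 to 25.2 CPM in the other 4 organic and 13.2 to 20.2 CPM in the conventional muscles. Without that library the mean change of 1.08 was 0.77. TCTN1 (ENSGALG00000041861, chromosome 15, 6275510 to 6287842), a protein of the ciliary base, was at -0.55 ± 0.17 and -0.52 ± 0.17.

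**Figure D2:**
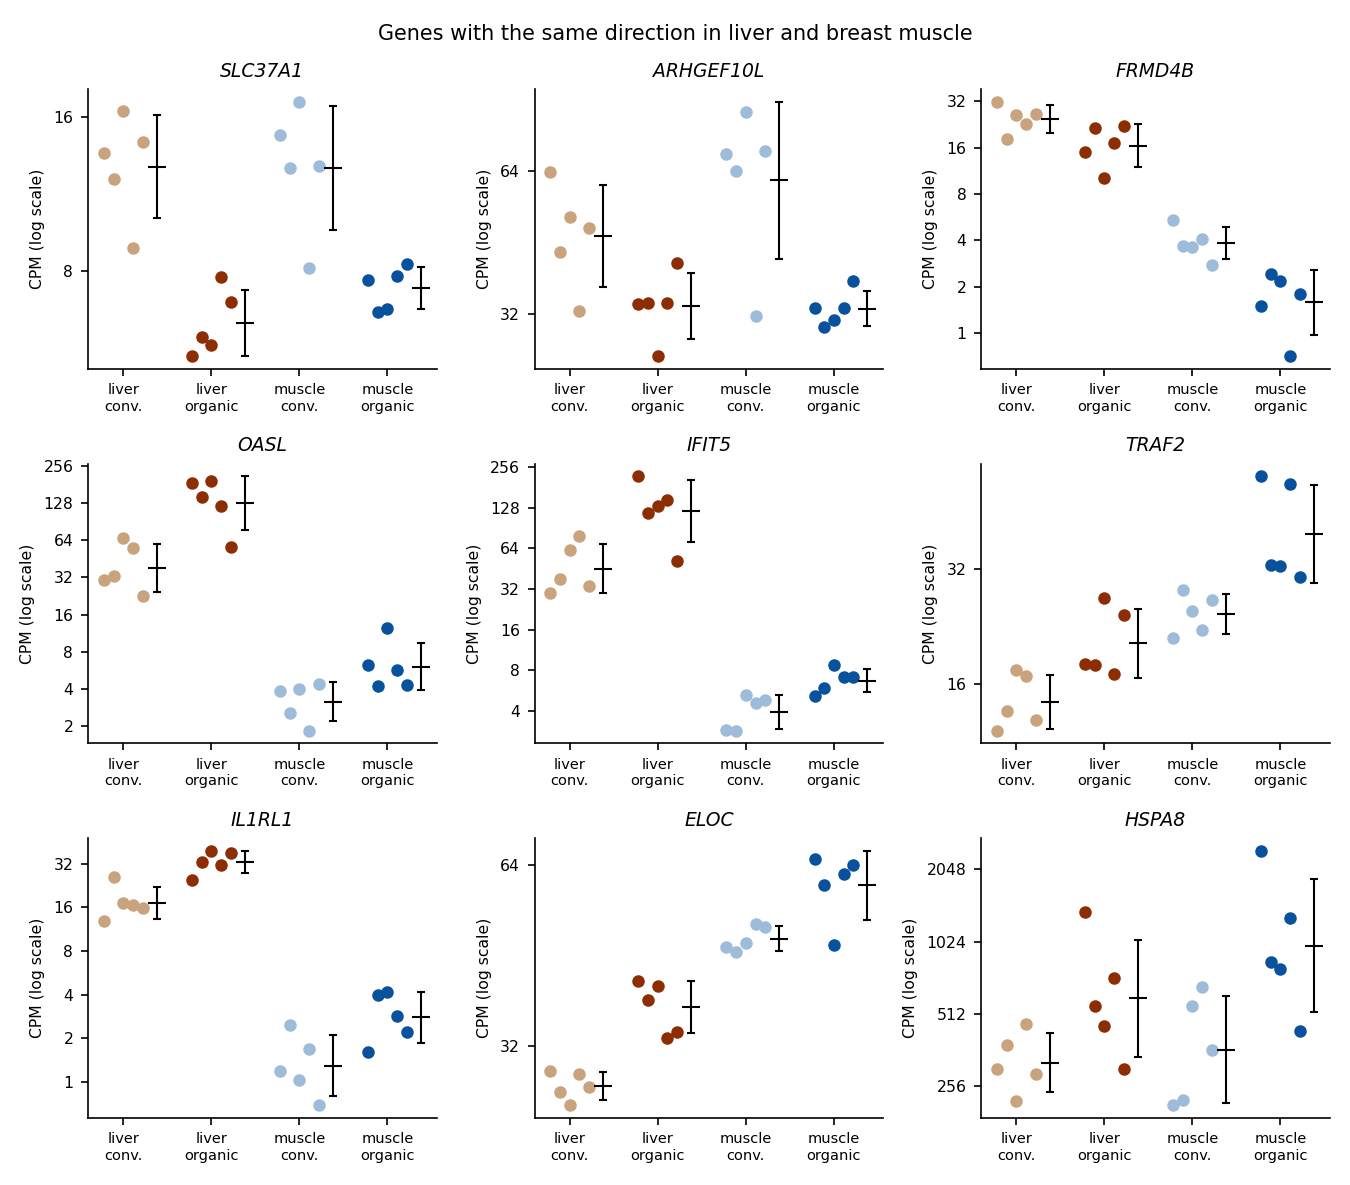
CPM (log scale) of 9 genes with the same direction in both tissues, 1 point per library in the 4 groups of 5; the bar is the geometric mean with the SD of the log2 values. SLC37A1, ARHGEF10L and FRMD4B lie lower in organic libraries of both tissues and the other 6 higher, with single libraries such as conventional replicate 4 of ARHGEF10L inside the other group.

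Cytosolic heat shock chaperones, which refold damaged proteins, were higher in organic birds in both tissues for 21 of 25 members, with 1 lower in both, 0 higher in liver only and 3 higher in muscle only. The median log2 fold change was 0.58 in liver and 0.40 in muscle. A higher mean at an unadjusted p under 0.05 was reached by 17 members (5.74% of all genes). Of these, 3 passed with DESeq2 (0.562% of all genes tested) and 0 with edgeR. HSPA8, the constitutive HSP70 chaperone, was at 303, 380, 223, 466 and 288 CPM in conventional and 1360, 551, 457, 722 and 303 CPM in organic livers. Its muscle values were 214, 224, 553, 665 and 361 CPM and 2450, 847, 792, 1290 and 437 CPM. Organic replicate 1 was the highest library of each tissue, and organic replicate 5 lay within the conventional range of each, with organic replicate 3 also in liver. The changes were 1.03 ± 0.44 and 1.53 ± 0.44, and HSPA8 overlaps another measured gene.

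HSP90AA1, the inducible HSP90, was at 177 to 577 CPM in conventional and 316 to 3360 CPM in organic livers, and at 780 to 3270 and 2870 to 8770 CPM in muscles. The changes were 1.72 ± 0.55 in liver and 1.42 ± 0.55 in muscle. HSPA4L, an exchange factor of HSP70, was at 0.73 ± 0.35 and 1.10 ± 0.35. The highest organic value of all 3 genes came from replicate 1 in each tissue. The score of the list was 1.31 in liver organic replicate 1 and -0.08 to 0.40 in the other organic livers. Muscle organic replicate 1 was likewise the highest muscle library, and the other 4 organic muscles were at 0.20 to 0.49. Conventional scores were -0.14 to 0.22 in liver and -0.25 to 0.23 in muscle. Without liver organic replicate 1 the liver median was 0.24, and without muscle organic replicate 1 the muscle median was 0.19.

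The unfolded protein response of the endoplasmic reticulum, which raises chaperones and folding enzymes for secreted proteins, was higher in both tissues for 17 of 26 members and in liver only for 9, with 0 lower in liver. Medians were 0.35 in liver and 0.06 in muscle. A higher level at an unadjusted p under 0.05 was reached by 13 members in liver (4.56% of all genes) and 4 in muscle (3.95%). With DESeq2, 3 passed for the mean (0.562% of all genes tested). HSPA5, the chaperone BiP, was at 310 to 1210 CPM in conventional and 928 to 3450 CPM in organic livers, and at 95.6 to 172 and 150 to 512 CPM in muscles. Its changes were 1.33 ± 0.41 and 0.92 ± 0.41. CRELD2, a secreted isomerase partner, was at 0.61 ± 0.18 and 0.53 ± 0.19 with no overlap in muscle, and SEC11C, a subunit of the signal peptidase whose position overlaps another gene, at 0.53 ± 0.16 and 0.37 ± 0.17. The median difference of 0.27 between the tissues was 0.16 without liver organic replicate 1. The muscle median of 0.06 was 0.01 without muscle conventional replicate 2, 0.12 without conventional replicate 5, and 0.10 without conventional replicate 1, organic replicate 4 or organic replicate 5.

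Proteasome subunits were higher in both tissues for 26 of 30 members by small amounts, with medians of 0.16 and 0.15. PSMD14, the deubiquitinase of the proteasome lid, was at 0.36 ± 0.17 in liver and 0.29 ± 0.16 in muscle. The liver median was 0.05 without liver organic replicate 1, and the muscle median 0.27 without muscle conventional replicate 4. Of antioxidant and NRF2 target genes, 18 of 28 were higher in both (medians 0.19 and 0.11), with TXNRD1, thioredoxin reductase, at 0.66 ± 0.28 and 0.38 ± 0.30 and overlapping another gene. Without liver organic replicate 1 their liver median was 0.08 and their median difference of 0.16 was 0.01. Leaving out liver organic replicate 4 gave a liver median of 0.30, and leaving out liver organic replicate 5 gave 0.31. The muscle median was 0.02 without conventional replicate 2, 0.06 without conventional replicate 3, 0.21 without conventional replicate 4 and 0.07 without organic replicate 3.

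Clock genes were higher in both tissues for 12 of 21 members and lower in both for 6. With DESeq2, 3 passed for the mean (0.562% of all genes tested). The list medians were 0.15 in liver and 0.19 in muscle. The liver median was 0.01 without liver organic replicate 1 and 0.08 without organic replicate 4. It was 0.06, 0.05 and 0.08 without liver conventional replicates 1, 2 and 5. The muscle median was 0.30 without muscle conventional replicate 2 and 0.40 without conventional replicate 4. BHLHE40 and BHLHE41 repress the activators CLOCK and BMAL1. BHLHE40 was at 14.9, 20, 24.9, 40.9 and 8.01 CPM in conventional and 36.3, 44.9, 23.9, 39.3 and 28 CPM in organic livers. In muscle it was at 481, 340, 294, 303 and 447 CPM and at 1120, 450, 625, 686 and 783 CPM. The groups overlapped in both tissues, with 1 organic muscle (replicate 2) inside the conventional range. The changes were 0.67 ± 0.32 and 0.97 ± 0.31, and those of BHLHE41 1.49 ± 0.44 and 0.77 ± 0.43.

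NPAS2, an activator that can replace CLOCK, was lower by estimate in both tissues, at -1.65 ± 0.41 in liver and -0.72 ± 0.43 in muscle, and PER2, a repressor, was at 0.44 ± 0.33 and 0.73 ± 0.33. As for PER2 and BHLHE40, the estimates of NOCT and CSNK1E were larger in muscle. NOCT, a phosphatase of NADPH with a daily rhythm, was at 0.23 ± 0.28 in liver and 1.13 ± 0.27 in muscle. CSNK1E, the kinase that marks PER proteins, was at -0.20 ± 0.15 and 0.61 ± 0.14. NOCT was at 53.4, 124, 108, 183 and 210 CPM in conventional and 395, 260, 284, 334 and 213 CPM in organic muscles, with no overlap. The median difference of the clock list, -0.20, was -0.05 without liver conventional replicate 4, -0.10 without liver organic replicate 2 or muscle organic replicate 1, -0.11 without muscle conventional replicate 1, -0.13 without liver organic replicate 3 or muscle conventional replicate 5, and -0.36 without the 3 libraries that stand apart. The part of the hour of collection was not tested.

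Glucocorticoid-responsive genes were higher in both tissues for 9 of 14 members, with medians of 0.19 in liver and 0.56 in muscle, and 0 passed with edgeR or DESeq2. ZBTB16, a transcription factor induced by glucocorticoids, was at 1.16 ± 0.51 and 0.74 ± 0.50. The liver median was 0.05 without liver organic replicate 1, 0.11 without organic replicate 4, 0.12 without conventional replicate 3 and 0.32 without organic replicate 3. Cell division genes were lower in both tissues for 18 of 28 members and higher in both for 1, with medians of -0.33 and -0.49. CCND2, a D-type cyclin, was at -0.42 ± 0.16 and -0.24 ± 0.16. Leaving out muscle conventional replicate 1 gave a muscle median of -0.20, and leaving out muscle organic replicate 1 gave -0.33. The liver median was -0.08 without conventional replicate 3, -0.17 without organic replicate 3 and -0.56 without organic replicate 4. ALDH1A2, which makes retinoic acid, was at -0.74 ± 0.36 in liver and -1.02 ± 0.35 in muscle, where the groups did not overlap.

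**Figure D3:**
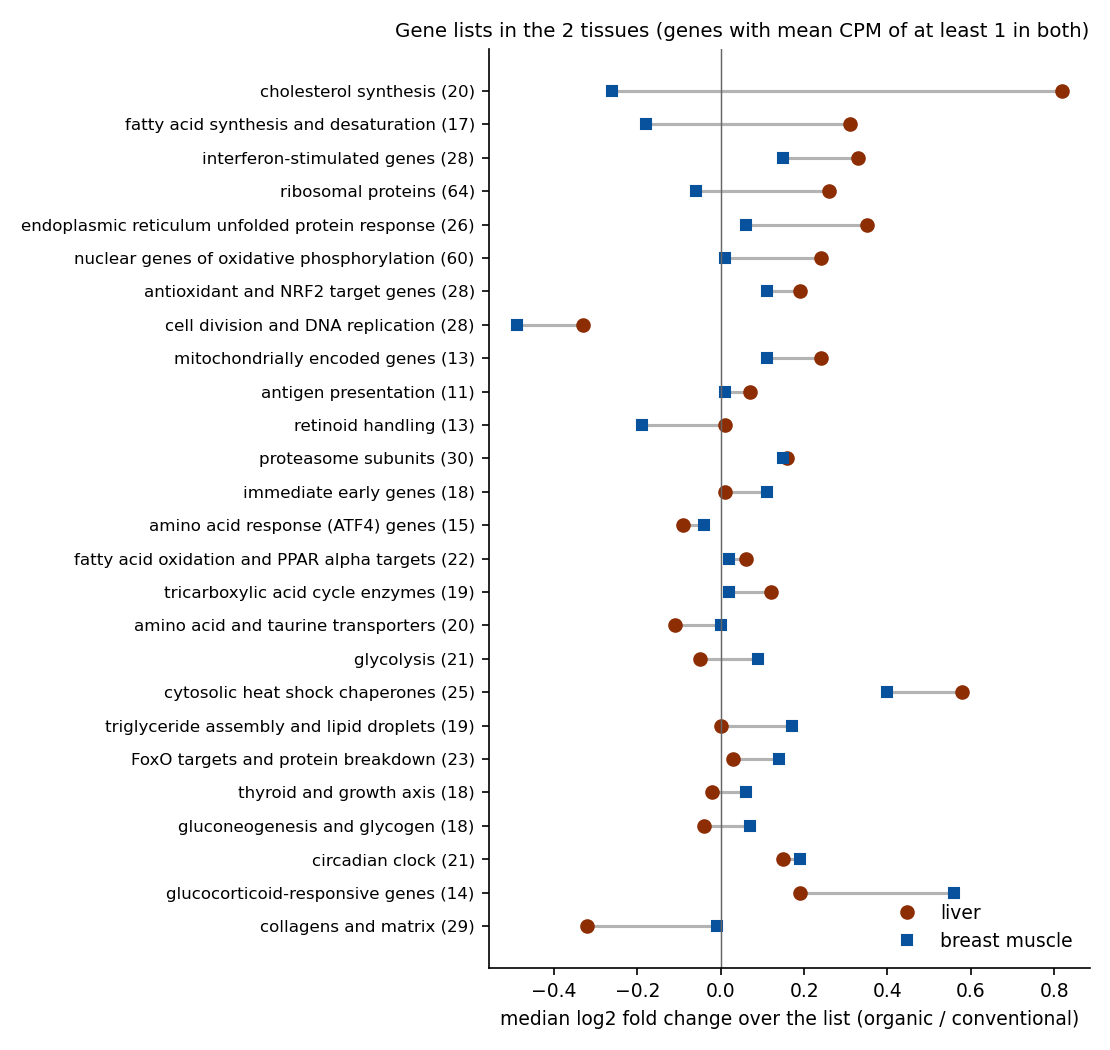
Median log2 fold change (organic over conventional, x axis) of 26 gene lists in liver (circles) and breast muscle (squares), with the number of genes in each list in brackets, ordered by the median difference. Cholesterol synthesis has the widest gap, 0.82 in liver and -0.26 in muscle, and heat shock chaperones lie to the right in both tissues at 0.58 and 0.40.

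Cholesterol synthesis had the largest median difference between the tissues among the 26 lists, 1.0 with all libraries and 0.64 without liver organic replicate 1. Of its 20 members, 15 were higher in liver and lower in muscle, where 22.4% of all genes were, and 5 were higher in both. The medians were 0.82 in liver and -0.26 in muscle. In liver 12 members were higher at an unadjusted p under 0.05 (4.56% of all genes), and in muscle 0 in either direction (8.74%). At that level 5 had a difference above 0 (2.92% of all genes), with 0 passing any test after adjustment. DHCR7, the last enzyme of the pathway, was at 28.5, 34.9, 33.6, 48.4 and 30.4 CPM in conventional and 155, 42.5, 23.3, 95.5 and 38.4 CPM in organic livers. In muscle it was at 2.86, 2.63, 4.68, 2.68 and 2.94 CPM and at 0.657, 1.73, 2.56, 2.06 and 0.817 CPM. Every organic muscle lay below every conventional one, while in liver organic replicates 1 and 4 were far above all others. The changes were 1.02 ± 0.38 in liver and -0.99 ± 0.48 in muscle, and the unadjusted p of the difference was 0.00393 by edgeR (adjusted p 0.838).

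The other named members varied among organic livers as well. CYP51A1, the lanosterol demethylase, was at 591, 164, 122, 362 and 135 CPM in organic livers and at 100 to 191 CPM in conventional ones, and its changes were 1.11 ± 0.38 in liver and -0.36 ± 0.41 in muscle. ACAT2, which joins acetyl-CoA units in the cytosol and overlaps another gene, was at 270, 275, 478, 92.3 and 117 CPM in organic and 74.9 to 152 CPM in conventional livers. Replicate 3 was the highest organic liver for ACAT2 and replicate 4 the lowest, unlike DHCR7 and CYP51A1. The changes of ACAT2 were 1.13 ± 0.33 and -0.33 ± 0.37. The list score was 1.43 in liver organic replicate 1, 1.07 in replicate 4, 0.47 in replicate 2, -0.18 in replicate 3 and -0.39 in replicate 5, against -0.30 to 0.29 in conventional livers. Leaving out liver organic replicate 1 gave a liver median of 0.47, and leaving out liver organic replicate 4 gave 0.54. Without the 3 libraries that stand apart it was -0.04, and the median difference was 0.06. Those 3 include liver organic replicates 1 and 4, the highest organic livers of this list, so a fall was close to fixed in advance. In muscle, organic scores were -0.41 to -0.06 and conventional scores -0.37 to 0.29.

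Fatty acid synthesis and desaturation genes were higher in liver and lower in muscle for 10 of 17 members, with medians of 0.31 and -0.18 and a median difference of 0.42, which was 0.18 without the 3 libraries that stand apart. Their liver median was 0.18 without liver organic replicate 1 or 2, and their muscle median was 0.00 without muscle conventional replicate 3, -0.06 without conventional replicate 1, -0.10 without conventional replicate 5 and -0.09 without organic replicate 1. With DESeq2, 2 of the 17 members passed for the mean (0.562% of all genes tested) and 0 for the difference. ACLY, which makes cytosolic acetyl-CoA and overlaps another gene, was at 328, 309, 369, 478 and 369 CPM in conventional and 1010, 741, 562, 702 and 605 CPM in organic livers. Its muscle values were 11.7 to 16.5 CPM in conventional and 10.5 to 19 CPM in organic libraries. The liver groups did not overlap and the muscle groups did in full. The changes were 0.96 ± 0.18 in liver and -0.01 ± 0.18 in muscle, a difference of 0.97 ± 0.25 with an adjusted p of 0.816 by edgeR.

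FASN, the fatty acid synthase, varied widely among organic livers: 2950, 723, 297, 2020 and 493 CPM, against 103, 196, 392, 383 and 370 CPM in conventional livers. Its change was 2.17 ± 0.50 in liver and 0.20 ± 0.50 in muscle. ME1, the malic enzyme that supplies NADPH for lipid synthesis and overlaps another gene, was at 722, 131, 30.3, 262 and 28.9 CPM in organic and 24.9 to 76.6 CPM in conventional livers. Its difference of 2.04 ± 0.84 was 0.98 without liver organic replicate 1. Organic replicates 3 and 5 lay within the conventional range of ME1, and replicate 3 within that of FASN. Hepatocyte markers summed to 161000 to 212000 CPM in conventional and 130000 to 240000 CPM in organic livers, and their part in the lipid results was not tested.

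**Figure D4:**
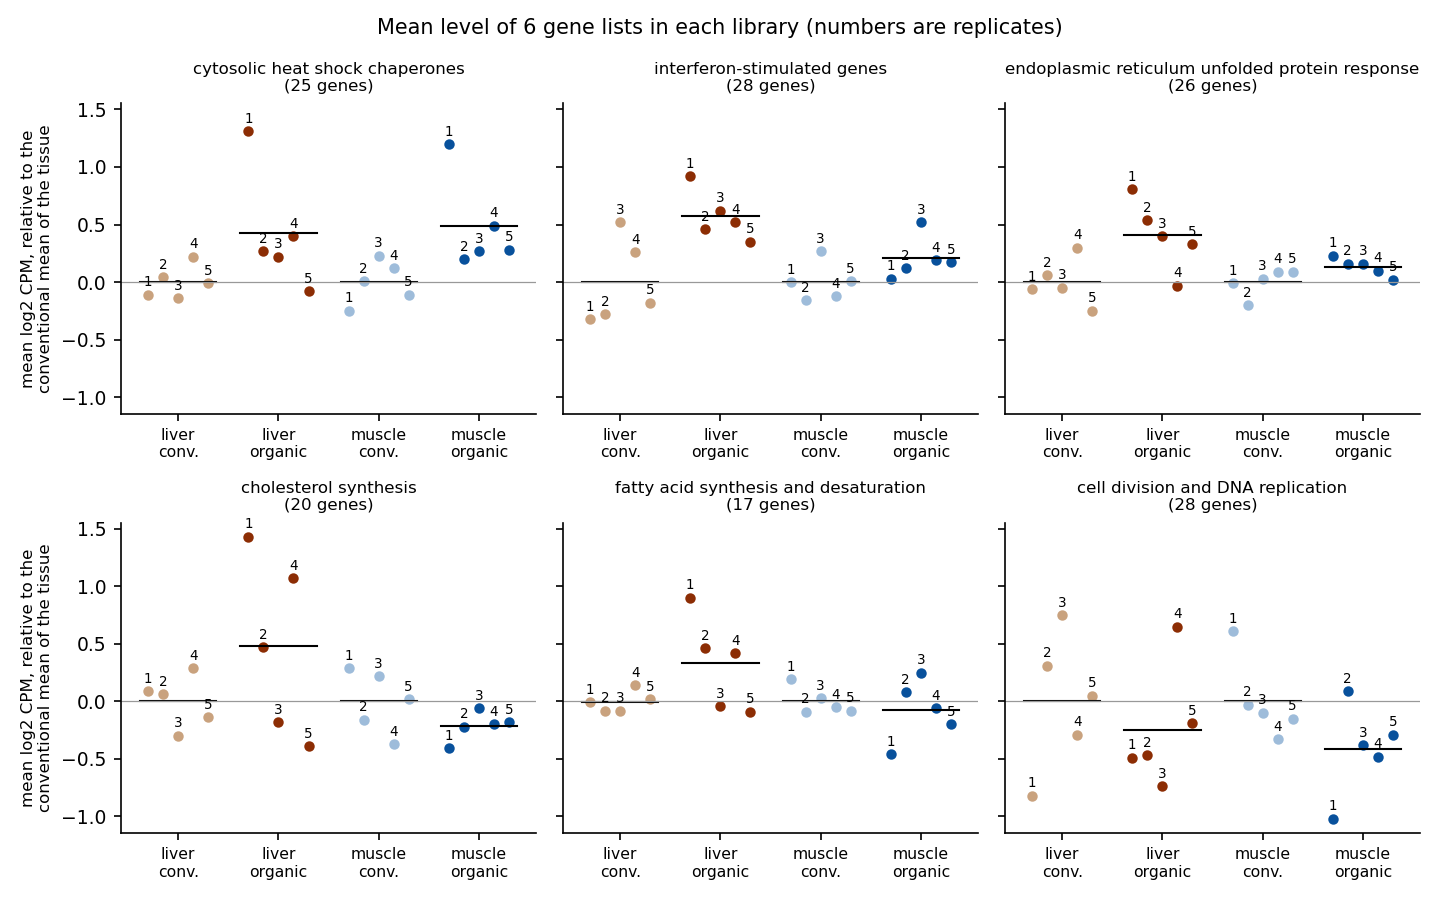
Mean log2 CPM of the members of 6 gene lists in each library, relative to the conventional mean of the same tissue (y axis); numbers beside points are replicates and black lines are group means of 5. Organic replicate 1 is highest for heat shock chaperones in both tissues (1.31 in liver) and for cholesterol synthesis in liver (1.43), where organic replicates 3 and 5 lie at -0.18 and -0.39.

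At an unadjusted p under 0.05 were 8.15% of the 10955 genes in liver and 8.74% in muscle. How many genes chance alone would give was not tested, for the 8 with opposite directions or the 95 with the same direction. LPIN1 and ELOVL6, of lipid metabolism, were among the 8. The share of lipid genes among all genes was not counted, so no theme is read from them. LPIN1 (ENSGALG00000016456, chromosome 3, 97402679 to 97470693) encodes lipin 1, which makes diacylglycerol for triglycerides. It was at 10.7, 9.74, 5.91, 8.47 and 9.06 CPM in conventional and 23.1, 9.58, 15.2, 13.3 and 10.4 CPM in organic livers. Conventional muscles were at 36.8, 65, 26.1, 25.5 and 45.5 CPM and organic muscles at 12, 16.2, 18.2, 17.5 and 41.1 CPM. Organic replicates 2 and 5 lay within the conventional range in liver, and organic replicate 5 alone in muscle. The changes were 0.71 ± 0.32 in liver and -0.92 ± 0.31 in muscle, a difference of 1.63 ± 0.45 (edgeR adjusted p 0.819).

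ELOVL6 (ENSGALG00000054319, chromosome 4, 57922324 to 57987408), which elongates saturated fatty acids and overlaps another gene, was at 123, 73.6, 108, 159 and 83.4 CPM in conventional and 285, 216, 129, 203 and 97.4 CPM in organic livers. Muscle levels were low, at 2.71, 2.4, 2.6, 1.53 and 1.08 CPM in conventional and 0.375, 1.18, 1.55, 1.03 and 1.06 CPM in organic libraries. The groups overlapped in both tissues. The changes were 0.76 ± 0.27 and -0.96 ± 0.39, with a difference of 1.73 ± 0.48.

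Lower in liver and higher in muscle were CMC4, ATXN7, GTF2IRD1, SLC3A1 and FZR1. CMC4 (ENSGALG00000023937, chromosome 4, 2176683 to 2182464), a small mitochondrial protein whose gene overlaps another, had the smallest p of the difference of all named genes. It was at 16.8, 21.1, 16.2, 18.7 and 18.1 CPM in conventional and 14.4, 17.2, 14.8, 16.4 and 14.8 CPM in organic livers. Conventional muscles were at 36.2, 33.5, 39.7, 36.5 and 35.2 CPM and organic muscles at 56.3, 48.8, 45.3, 43.5 and 51.5 CPM. The groups were apart in muscle and overlapped in liver. The changes were -0.23 ± 0.11 and 0.44 ± 0.10, and the difference of -0.67 ± 0.15 had an unadjusted p of 0.000193 and an adjusted p of 0.816 by edgeR, and an adjusted p of 0.0641 by DESeq2.

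ATXN7 (ENSGALG00000007302, chromosome 12, 13943984 to 14003991), a subunit of the SAGA chromatin complex, overlaps another gene and was at 10.6 to 16.8 against 9.2 to 13.3 CPM in liver and 18.3 to 22.7 against 21.1 to 33.3 CPM in muscle, conventional first. Its difference was -0.83 ± 0.21. GTF2IRD1 (ENSGALG00000001263, chromosome 19, 2867022 to 2901742), a transcription factor that represses slow fibre genes in mammals, was at 3.24 to 5.67 against 2.13 to 3.81 CPM in liver and 38.5 to 56.7 against 37.7 to 73.8 CPM in muscle. Its difference was -1.01 ± 0.27. Both overlapped between groups in each tissue.

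SLC3A1 (ENSGALG00000009973, chromosome 3, 25588912 to 25603301), the heavy chain of the transporter for cystine and basic amino acids, was at -0.64 ± 0.30 in liver and 0.84 ± 0.36 in muscle. FZR1 (ENSGALG00000002085, chromosome 28, 1169318 to 1181306), an activator of the ubiquitin ligase that ends mitosis, was at -0.24 ± 0.12 and 0.26 ± 0.12. C4H4ORF46 (ENSGALG00000052557, chromosome 4, 21926876 to 21929479), which overlaps another gene, went the other way at 0.29 ± 0.12 and -0.26 ± 0.12. With 1 library left out, the differences of the 8 genes kept their sign. Their opposite directions were part of the choice in these same libraries, so this was close to fixed in advance.

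Genes with a large estimate in 1 tissue and a small or opposite one in the other gave the remaining small p of the difference. SLC6A6 (ENSGALG00000006425, chromosome 12, 11318269 to 11407020), the taurine transporter, was at 115, 84.1, 98.2, 38.6 and 106 CPM in conventional and 29.5, 24.3, 40, 33.7 and 48.6 CPM in organic livers. Its muscle values were 8.28, 6.31, 3.55, 7.51 and 6.03 CPM and 6.29, 11.8, 6.13, 10.3 and 5.72 CPM. Conventional liver replicate 4 lay within the organic range, the other 4 conventional livers lay above it, and the muscle groups overlapped. The changes were -1.33 ± 0.27 in liver and 0.34 ± 0.29 in muscle, a difference of -1.67 ± 0.40 (edgeR adjusted p 0.816). In liver alone it passed with DESeq2 (adjusted p 0.0055) and not with edgeR (0.154).

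MOGAT1 (ENSGALG00000005217, chromosome 9, 8181677 to 8204484), an acyltransferase that builds diacylglycerol and overlaps another gene, was at 23.9 to 46.1 CPM in conventional and 10.2 to 18.8 CPM in organic livers, with no overlap. Muscle values were 1.78 to 4.89 and 2.25 to 10.7 CPM. The changes were -1.23 ± 0.31 and 0.63 ± 0.34. SKI (ENSGALG00000001229, chromosome 21, 1681755 to 1772379), a repressor of TGF-beta signalling, was at -0.99 ± 0.24 in liver and 0.39 ± 0.23 in muscle, and HECA (ENSGALG00000013824, chromosome 3, 54130235 to 54163918) at -0.48 ± 0.13 and 0.26 ± 0.13, with no overlap in liver.

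For SIK3 and ZSWIM5 the larger estimate was in muscle. SIK3 (ENSGALG00000007144, chromosome 24, 5145236 to 5215773), a salt-inducible kinase that acts on regulators of gene activity, was at 20.5, 31.4, 27.8, 41 and 18.5 CPM in conventional and 48.4, 44.5, 64.1, 58.2 and 38.8 CPM in organic muscles. A single organic muscle (replicate 5) lay below the highest conventional one. The changes were -0.21 ± 0.19 in liver and 0.87 ± 0.19 in muscle. ZSWIM5 (ENSGALG00000010221, chromosome 8, 21296800 to 21377920) was at -0.27 ± 0.18 and 0.80 ± 0.18.

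Of genes under 1 CPM in at least 1 tissue, ITGB6 (ENSGALG00000011141, chromosome 7, 21793549 to 21822090), an integrin chain that activates TGF-beta, was low in both. It was at 0.0751 to 0.306 CPM in conventional and 0.388 to 1.14 CPM in organic muscles. In liver it was at 0.274 to 2 and 0.368 to 0.957 CPM. VSNL1 (ENSGALG00000016464, chromosome 3, 100056251 to 100133415), a calcium sensor, was at 0.0751 to 0.386 and 0.245 to 1.25 CPM in muscle. In liver VSNL1 was at 51.1 to 67.5 CPM in conventional and 29.6 to 81 CPM in organic libraries. ESM1 (ENSGALG00000027707, chromosome Z, 16626076 to 16634702), secreted by endothelium, was the low one in liver, at 0 to 0.359 and 0.266 to 0.773 CPM. In muscle ESM1 was at 0.606 to 3.31 and 0.245 to 1.1 CPM. Its changes were 1.73 ± 0.65 in liver and -1.31 ± 0.55 in muscle. B3GALT5 (ENSGALG00000016128, chromosome 1, 109397569 to 109410287), a galactosyltransferase, was at 3.94 to 11.1 CPM in conventional and 1.28 to 7.86 CPM in organic livers. It had 0 counts in 4 of 5 conventional muscles and was at 0.155 to 1.13 CPM in organic ones. Its fitted difference of -4.28 ± 1.13, -6.47 without muscle conventional replicate 4, depends on the fit's treatment of those zeros. The values under 1 CPM rest on few reads.

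**Figure D5:**
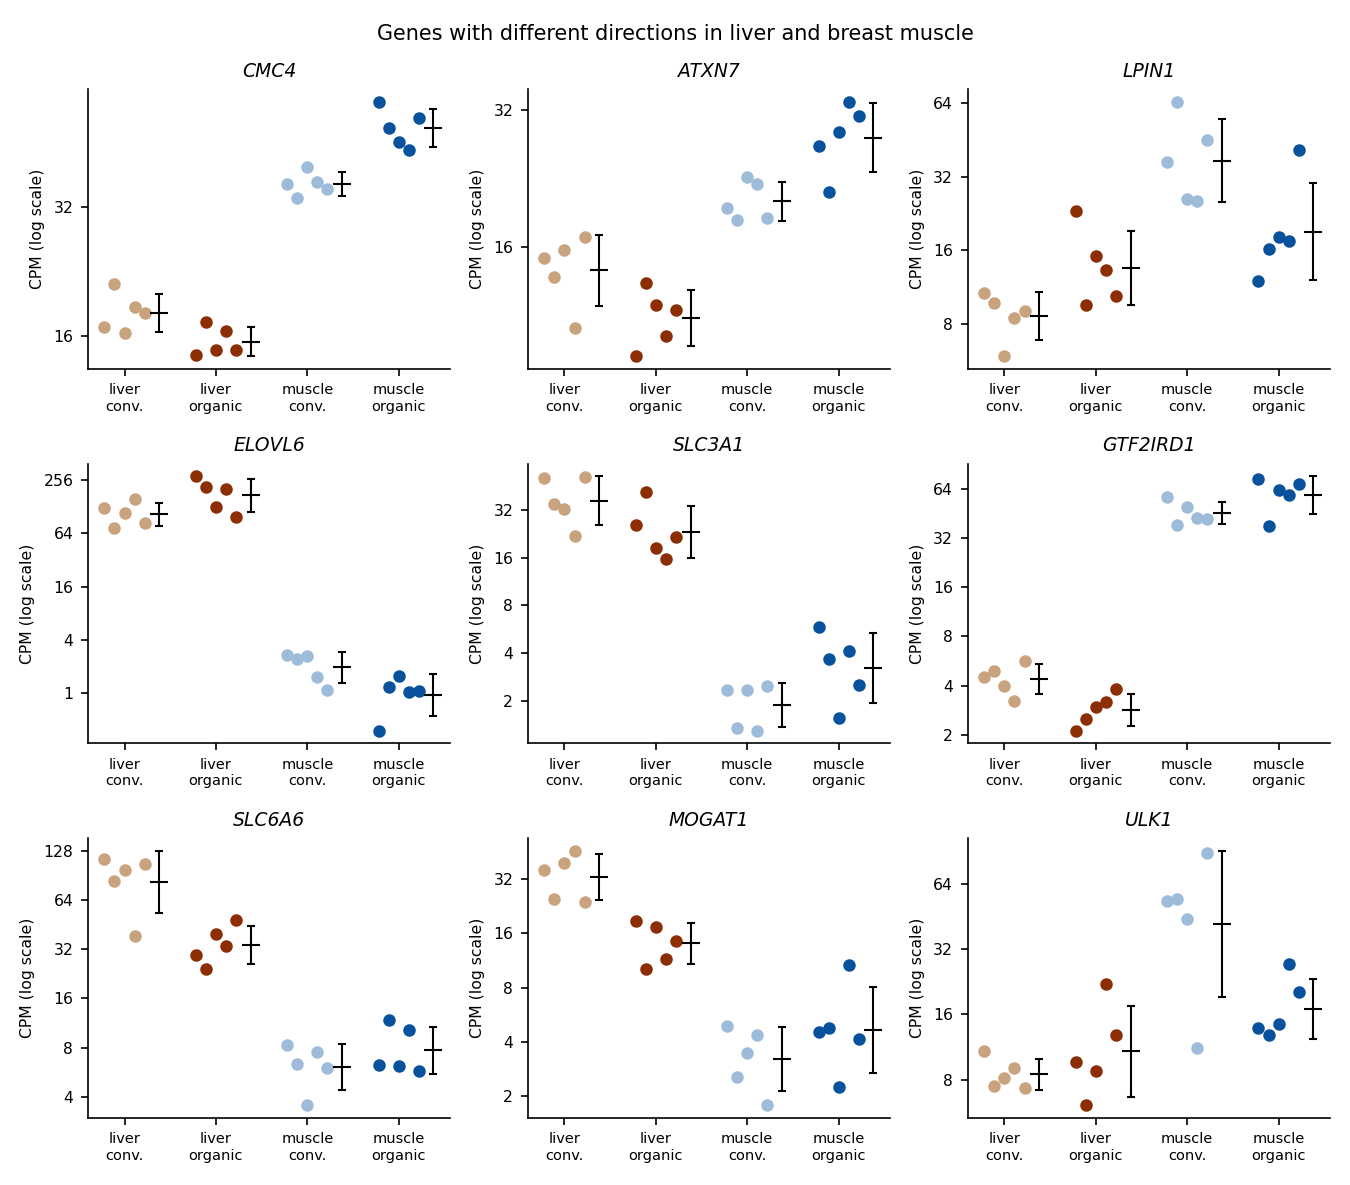
CPM (log scale) of 9 genes whose estimates differed in direction between tissues, 1 point per library in the 4 groups of 5; the bar is the geometric mean with the SD of the log2 values. LPIN1 and ELOVL6 lie higher in organic livers and lower in organic muscles, CMC4, ATXN7, SLC3A1 and GTF2IRD1 the reverse, and none passed the test of the difference after adjustment.

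Genes of protein breakdown under FoxO transcription factors had no common direction: 8 of 23 members were higher in both tissues, 3 lower in both, 5 higher in liver only and 7 in muscle only. FOXO3 was at 0.87 ± 0.37 in liver and 0.92 ± 0.36 in muscle. FBXO32, the ubiquitin ligase atrogin-1, is known for its role in muscle wasting. It was at 17.2, 16.1, 23.8, 16.4 and 24.8 CPM in conventional and 18.1, 14, 21, 16.4 and 22.5 CPM in organic livers, and at 323, 814, 274, 704 and 323 CPM and 840, 1100, 1210, 545 and 1150 CPM in muscles. The liver groups overlapped in full, and 4 of 5 organic muscles lay above every conventional muscle. The difference was -1.08 ± 0.40.

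TRIM63, the ligase MuRF1, overlaps another gene and was at -0.62 ± 0.39 in liver and 0.84 ± 0.35 in muscle. ULK1, the kinase that starts autophagy, was at 53.1, 54.5, 44.2, 11.2 and 88.3 CPM in conventional and 13.8, 12.8, 14.4, 27.3 and 20.3 CPM in organic muscles. Conventional replicate 4 was the lowest muscle library of all, and the other 4 conventional muscles lay above every organic one. ULK1 was at -1.50 ± 0.39 in muscle and 0.48 ± 0.39 in liver, so within this list the ligases and ULK1 went opposite ways in muscle by estimate.

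Amino acid and taurine transporters also split, with 4 of 20 higher in both, 6 lower in both, 4 higher in liver only and 6 in muscle only. Next to SLC6A6 and SLC3A1, SLC38A4, a carrier of neutral amino acids, was at 12.2, 11.1, 16.7, 3.37 and 5.79 CPM in conventional and 2.25, 4.86, 1.24, 4.98 and 2.29 CPM in organic muscles. Conventional replicate 4 was within the organic range and the other 4 were above it. Its liver values were 634 to 1340 and 718 to 1360 CPM. The changes were 0.15 ± 0.34 in liver and -1.64 ± 0.39 in muscle, the latter past the threshold with DESeq2 for muscle alone (adjusted p 0.0222) and not with edgeR (0.245).

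In triglyceride assembly, 6 of 19 members were higher in both tissues, 3 lower in both, 4 higher in liver only and 6 in muscle only. PLIN2, which coats stored lipid, was at 1.23 ± 0.34 in liver and 0.24 ± 0.33 in muscle. GPAM, which starts glycerolipid synthesis, was at 0.33 ± 0.23 and -0.58 ± 0.26. Fatty acid oxidation genes were split as well (8 higher in both, 6 lower in both, 5 and 3 with opposite signs, of 22), with the coactivator PPARGC1A at -0.73 ± 0.28 in liver and 0.31 ± 0.29 in muscle. In the glycogen list UGP2, which makes the glucose donor, was at 268 to 479 CPM in conventional and 603 to 1950 CPM in organic livers without overlap. Its difference of 0.98 ± 0.38 was 0.50 without liver organic replicate 1, the library at 1950 CPM.

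Ribosomal protein genes were higher in liver and lower in muscle for 45 of 64 members and higher in both for 19, with 0 lower in liver. The sizes were small, with medians of 0.26 in liver and -0.06 in muscle. An unadjusted p under 0.05 was reached by 3 of 64 members in liver, all higher, near the 4.56% of all genes higher there. In muscle 0 members reached it (8.74% of all genes). RPS21 was at 41.5 to 47.1 CPM in conventional and 43.2 to 95.5 CPM in organic livers, and at 18.3 to 46.3 and 19.5 to 37.3 CPM in muscles. The list score was 0.44 in muscle conventional replicate 1, and without that library the muscle median was 0.08 and the median difference of 0.31 was 0.17. With any 1 muscle library left out the muscle median lay between -0.16 (without conventional replicate 2) and 0.08. Nuclear genes of oxidative phosphorylation were higher in both for 32 of 60 and in liver only for 25, with medians of 0.24 and 0.01 and NDUFB1, a subunit of complex I overlapping another gene, at 0.52 ± 0.18 and -0.05 ± 0.18. Their median difference of 0.21 was 0.14 without liver organic replicate 2, and their muscle median lay between -0.05 and 0.08 with 1 library left out.

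Collagens and matrix genes were lower in both tissues for 14 of 29 members and lower in liver but higher in muscle for 12, with medians of -0.32 in liver and -0.01 in muscle. The median difference of -0.36 was -0.06 without muscle organic replicate 2, and -0.24 without liver organic replicate 4. The muscle median lay between -0.28 (without organic replicate 2) and 0.16 (without conventional replicate 4). TNC, the matrix protein tenascin C, was at -0.42 ± 0.50 and 1.16 ± 0.50, and its difference of -1.59 ± 0.70 was -0.76 without muscle organic replicate 3. Fibroblast and stellate cell markers, some of them collagens of the same list, summed to 401 to 553 CPM in conventional and 230 to 407 CPM in organic livers, over 9 of 9 markers with none at 0. Muscle sums were 4470 to 10500 and 5370 to 16400 CPM. The marker score was lower in every organic than in every conventional liver, and its part in the matrix values was not tested.

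Endothelial markers were higher in liver and lower in muscle for 8 of 10, with a median difference of 0.41, which was 0.26 without muscle conventional replicate 1 and 0.27 without liver organic replicate 4. Erythrocyte markers were higher in both for 3 of 3 members, and their median in muscle of 1.42 was 0.48 without muscle organic replicate 4. The remaining lists had medians between -0.19 and 0.24 in both tissues: mitochondrially encoded genes were higher in both for 10 of 13 (liver median 0.24, and 0.07 without liver organic replicate 4), tricarboxylic acid cycle enzymes for 9 of 19, glycolysis for 8 of 21, gluconeogenesis and glycogen for 5 of 18, immediate early genes for 6 of 18, antigen presentation for 5 of 11, retinoid handling for 5 of 13, thyroid and growth axis for 4 of 18 and amino acid response genes for 3 of 15.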

How the data were processed

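RNA sequencing of 10 livers and 10 breast muscles was analysed from 1 table. The authors deposited raw read counts per gene beside FPKM values, per the file headers; HISAT2 2.0.5, DESeq2 1.20.0 and build GRCg6a are named in the submitters' processing notes. The counter and its strandedness are not stated there. The deposited FPKM values are counts per length of gene, scaled by a factor per library. That factor was in constant proportion to the DESeq2 size factor computed over all 20 libraries, and not to the library's total count. Of 27170 genes, 13482 had no symbol, and 725 symbols were filled from RefSeq (names only).

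All 20 libraries entered 1 edgeR 4.0.16 quasi-likelihood fit (R 4.3.3; TMM; minimum count 10; 4 group means), with 4 contrasts per gene: difference, mean, liver and muscle, each Benjamini-Hochberg adjusted over all genes tested with a threshold of 0.05. The fit was tested on simulated counts drawn independently for each library, with no likeness between libraries of the same replicate number. That simulation cannot show how the fit handles such likeness or libraries that stand apart. DESeq2 1.42.0, limma 3.58.1, FPKM with pseudocounts of 0.5 and 0.1, other filters, replicate blocks and each library left out were alternatives; leaving out 3 libraries together was chosen after seeing the data. Scores of lists average log2 CPM (prior count 2) over members. No confidence intervals are given. Most gene changes carry a standard error, values per library are given for part of the genes, and list medians carry no error. Total counts of 12699692 to 20488526 limit genes under 1 CPM most.

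Genes were named by a fixed rule. It took those with the smallest p of the difference, 8 at 1 CPM or more in both tissues and 4 below it in at least 1. Among genes with opposite directions at an unadjusted p under 0.05 in both tissues, it took the smallest p of the difference. Among those with equal directions it took the 12 smallest p of the mean. For each of 26 function lists it took members passing a test and up to 3 with the smallest p of the difference and of the mean. A gene that this rule names is not reported here. There were 12 marker lists. Of these, B cell sums were 24.2 to 70.2 CPM in conventional and 47.4 to 69.7 CPM in organic livers, and adipocyte sums 339 to 419 and 296 to 462 CPM. Liver thrombocyte sums were 32 to 52.2 and 21.9 to 63.2 CPM, and heterophil sums 10.7 to 21.5 and 6.78 to 15.7 CPM. In muscle, B cell sums were 7.88 to 29.1 and 11.5 to 46.8 CPM, and adipocyte sums 95 to 268 and 98.8 to 198 CPM. Muscle thrombocyte sums were 18.3 to 59.4 and 27.1 to 89.1 CPM, and heterophil sums 1.95 to 11 and 2.37 to 32.9 CPM. The comparison and the lists were chosen with earlier results of these data known.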

Additional observations from a re-analysis of the deposited data

Results flagged for a closer look

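In 14 of 228 groups of 5 values, 1 library lay far from the other 4, its gap to the nearest of them divided by the group's range being above 0.71; chance gives this in about 1 in 20 groups. Total counts were highest in liver organic replicate 1 (ratio 0.884). Among named genes, conventional replicate 4 was the lowest conventional library for SLC6A6 in liver (0.711) and for ARHGEF10L in muscle (0.711), and the 1 with any B3GALT5 count among conventional muscles (ratio 1). PISD was highest in muscle organic replicate 3 (0.754), and ITGB6 lowest in the same library (0.722). SCOC was lowest in liver conventional replicate 1 among conventional livers (0.732).

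For list scores, ribosomal proteins were lowest (0.800) and amino acid and taurine transporters highest (0.761) in liver conventional replicate 1. Genes of FoxO and protein breakdown were highest in liver organic replicate 1 (0.800). Proteasome subunits were lowest in liver conventional replicate 3 (0.714) and highest in muscle conventional replicate 4 (0.727). Muscle conventional replicate 3 was highest for amino acid response genes (0.753) and for amino acid and taurine transporters (0.768).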

How the results depend on the processing

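The count of genes whose change differed between tissues was 0 under every setting tried. The count of 1 for the mean was 78 with DESeq2 and 123 with separate fits per tissue. For the 123, the estimates of the tissues were averaged and the p came from a normal distribution, not from edgeR's quasi-likelihood test. A normal distribution takes no account of the few libraries behind each standard error, so the 123 can be too high. The count was 3 with only genes at 1 CPM or more in both tissues, and 2 without mitochondrially encoded genes and with either FPKM pseudocount. It was 0 with limma-voom or without the 3 libraries that stand apart. With 1 library left out it was 1 to 6, with 6 without liver organic replicate 5, 3 without liver conventional replicate 1 or muscle organic replicate 3, and 2 without muscle conventional replicates 3 or 4 or organic replicate 5. The liver count of 0 was 33 with DESeq2, 4 with limma-voom, 1 with either FPKM pseudocount and 0 to 3 with 1 library left out. The muscle count of 0 was 32 with DESeq2 and 0 to 26 with 1 library left out, 26 being without muscle conventional replicate 4. The 95 genes of equal direction became 58 to 119 with 1 library left out and 39 without 3. The 8 of opposite directions became 3 to 21, and 5 with no filter on low counts. The cause of these moves was not tested.

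Replicate numbers as a random block in limma-voom gave 0 genes for the mean and 4 for liver, the same counts as limma-voom without the block. That setting gave 5 genes of opposite directions. As terms within each tissue in edgeR, replicate numbers gave 0 for the mean. Same-numbered liver and muscle libraries deviated together with r of 0.03 to 0.25, 9 of 10 pairs over 0.1, beside -0.20 to 0.10 for other numbers. Of the liver libraries, 9 of 10 were closest to their own number, a hint from the data and not the design. Counting each gene value once per alternative setting, 2126 were unchanged in call, 45 passed the threshold only under the alternative, 4 (all SLC37A1) lost it and none reversed. The genes were named for a small p in these same libraries, so keeping their sign was close to fixed in advance. Of list medians of the difference, counted in the same way, 12 moved by more than the standard error of the difference in list score, and 769 did not. Leaving out 1 library of 5 can hardly move a group mean that far, so the 769 do not show that the medians are stable. Depth limits genes under 1 CPM.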
